A study of Homo sapiens with 28 samples.

Results

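The DLK1-DIO3 imprinted locus is a stretch of human chromosome 14 that holds paternally expressed protein-coding genes and maternally expressed non-coding RNAs. Its members here are the 5 rows of the deposited expression table named DLK1, MEG3, MEG8, DIO3 and DIO3OS, of 58219 genes in all. The members were chosen by name with earlier results of these data known, so their levels and differences are given as a description, with no test. Of the 5, 4 passed the filter on low values (TPM of at least 1 in at least 2 libraries), as did 27912 genes of the whole table. MEG8 did not.

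RNA with poly(A) tails was sequenced from the human embryonic stem cell line H9, which is an established line, to ask what the transcription factor SOX1 does early in neural differentiation. The cells were SOX1-/- (here KO, with 2 numbers in the sample names, 26 and 48) or wild type (WT, named CTRL, numbers 1 and 2). The numbers are read here as lines, and how the deletion was made was not given in the sources used here. Each genotype was collected undifferentiated (ES, day 0) and as neural progenitor cells derived from it on days 4 and 8 under 3 culture labels: IWP2 (the name of a compound that blocks WNT secretion), CT0.4 and CT1.0. The labels do not say what CT stands for or in which unit its number is. These are 14 groups of 2 libraries, 1 per line, 28 in all. Values are gene-level TPM (transcripts per unit of all transcripts, scaled for transcript length) as deposited. Differences are of mean log2(TPM + 1), which shrinks the change of genes with low values, and carry the standard error (SE) of a limma fit across all tested genes. With 2 libraries a group, SE and p measure only the spread between these lines and their libraries. The fit pools that spread over all 14 groups, so a gene has the same SE in every comparison of the full fit. The SE is therefore not the spread of just the libraries compared.

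At this locus many genes are read mainly from 1 parental chromosome. DLK1 (a NOTCH-like transmembrane protein that keeps progenitor cells immature), RTL1 (a gene derived from a retrotransposon) and DIO3 (the deiodinase that inactivates thyroid hormone) are read mainly from the paternal copy. MEG3, MEG8 and MEG9 are long non-coding RNAs of the maternal copy and host many small nucleolar RNAs and microRNAs. The choice of copy rests on a methylated control region between DLK1 and MEG3. MEG3 silencing is a known event in cultured human pluripotent cells. Gene-level TPM does not separate the parental copies, so imprinting itself was not measured.

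On GRCh38 in the GENCODE 29 annotation, the locus runs 837.7 kb along chromosome 14 from the start of DLK1 to the end of DIO3. DLK1 (ENSG00000185559.13 in the table, protein-coding) is at chr14:100725705-100738224 on the plus strand. MEG3 (ENSG00000214548.14, long non-coding) is at chr14:100779410-100861031 on the plus strand. DIO3OS (ENSG00000258498.8, long non-coding) is at chr14:101552221-101560431 on the minus strand. DIO3 (ENSG00000197406.7, protein-coding) is at chr14:101561351-101563452 on the plus strand, and 919 bases separate it from DIO3OS, so these neighbours are read away from each other. The row named MEG8 carries the identifier ENSG00000258399.7, which GENCODE 29 lists as AL117190.1 at chr14:100836269-100947194 on the plus strand. The gene that GENCODE 29 calls MEG8 has the identifier ENSG00000225746, which the deposited table names SNHG23. SNHG23 is therefore no member here and is described with the other genes of the region. Which annotation release the deposited table used was not given in the sources used here.

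RefSeq promoter sequences on GRCh38.p14 were found for 3 of the 5 members and are shown because the pair of DIO3 and DIO3OS, whose starts face away from each other, and MEG3 stood differently in WT CT1.0 on day 8. Each window runs 5′ to 3′ on the gene's own strand, with 250 bases before and 50 bases after a start site. MEG3 has several start sites in the table, and the first listed is shown, at chr14:100825858-100826157 on the plus strand. DIO3OS is at chr14:101560373-101560672 on the minus strand and DIO3 at chr14:101561245-101561544 on the plus strand. Capitals mark matches to 6 motifs searched on both strands: the cAMP response element TGACGTCA, the TATA box spelled TATAAA, the common promoter element CCAAT, the letters TGCCGC from the site of ZFP57 (which guards imprints), CTTTGAT as the core of TCF/LEF sites (the nuclear end of WNT signalling) and AACAAT as the core of SOX sites.
MEG3: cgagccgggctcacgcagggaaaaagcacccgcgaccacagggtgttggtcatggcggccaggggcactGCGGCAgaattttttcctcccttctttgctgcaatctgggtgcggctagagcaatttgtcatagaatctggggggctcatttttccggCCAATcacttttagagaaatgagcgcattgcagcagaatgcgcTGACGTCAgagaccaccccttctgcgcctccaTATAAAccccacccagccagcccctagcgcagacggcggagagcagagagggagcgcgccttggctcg
DIO3OS: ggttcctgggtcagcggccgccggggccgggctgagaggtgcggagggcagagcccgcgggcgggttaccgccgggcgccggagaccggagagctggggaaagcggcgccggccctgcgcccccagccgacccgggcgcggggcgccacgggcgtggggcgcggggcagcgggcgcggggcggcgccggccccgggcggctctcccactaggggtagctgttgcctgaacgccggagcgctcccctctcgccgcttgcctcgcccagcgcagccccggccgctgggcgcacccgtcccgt
DIO3: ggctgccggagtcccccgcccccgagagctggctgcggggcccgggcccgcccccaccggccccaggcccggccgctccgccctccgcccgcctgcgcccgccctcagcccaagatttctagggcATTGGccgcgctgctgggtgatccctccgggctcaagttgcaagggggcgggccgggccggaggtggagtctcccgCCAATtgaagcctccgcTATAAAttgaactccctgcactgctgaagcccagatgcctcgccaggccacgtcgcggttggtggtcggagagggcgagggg

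The MEG3 window holds TGACGTCA, found in 1.85% of the 35116 promoter windows of that length, TATAAA (11.5%), CCAAT (34.6%) and 1 match to TGCCGC (16.7%), on the opposite strand. DIO3 holds TATAAA and 2 matches to CCAAT, 1 of them on the opposite strand. The DIO3OS window holds none of the 6 motifs. CTTTGAT (2.62% of windows) and AACAAT (10.1%) are in none of the 3. No match overlaps another. G and C make up 81.7% of the DIO3OS window, 73.0% of DIO3 and 59.0% of MEG3, against a median of 58.7% over all windows. CG occurs 46, 28 and 19 times in them, against a median of 14. A match is a string of letters and not a measured binding site.

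The files give TPM and no read counts, so depth is unknown and no counting interval can be given. The 4 WT libraries of the CT labels on day 4 stood apart, with 17694 to 18233 genes at a TPM of at least 1, against 18876 to 20338 in the other 24. Over all tested genes the median KO minus WT difference was 0.128 in CT0.4 and 0.195 in CT1.0 on day 4 (log2), and member differences there are to be read against it. Another scaling moves the split of calls: 3453 genes rose and 694 fell in CT1.0 on day 4 (1764 and 2537 with a median-ratio scaling), 1025 (3.67%) rose and 158 (0.566%) fell in CT0.4 on day 4 (465 and 1031), and 1210 rose and 2779 fell in CT1.0 on day 8 (1635 and 1887). SOX1 had 0.0238 to 3.08 TPM in the 14 KO libraries, against 72.1 to 98.0 TPM in the 4 WT CT1.0 libraries, 4.88 to 15.7 TPM in WT CT0.4, 9.90 and 10.6 TPM in WT IWP2 on day 8 and 0.177 and 0.264 TPM in WT ES. In IWP2 on day 4 the genotypes overlapped, with 0.410 and 1.14 TPM in KO and 0.907 and 0.990 TPM in WT, so that SOX1 does not check the labels there. More than one sequencing format is named without a link to samples, so a batch cannot be told apart from the groups. All 6 pluripotency markers had a mean of at least 1 TPM in both ES groups. On day 8, POU5F1 had 0.820 to 5.51 TPM, against 2399 to 2532 TPM in ES, PRDM14 had at most 0.450 TPM, against 30.1 TPM or more in ES, and NANOG had at most 0.233 TPM, against 20.9 TPM or more in ES. SOX2, LIN28A and DPPA4 stayed at 46.3 TPM or more in every library.

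DLK1 had the widest range of the members. It was low in ES cells, with 0.827 and 4.00 TPM in KO lines 26 and 48 and 2.85 and 0.842 TPM in WT lines 1 and 2. On day 4 it was abundant under all 3 labels. In IWP2 it had 514 and 626 TPM in KO, against 523 and 519 TPM in WT. Under CT0.4 there were 326 and 240.5 TPM in KO, against 218 and 193 TPM in WT. Under CT1.0 there were 260.5 and 434 TPM in KO, against 731 and 822 TPM in WT. The KO and WT libraries of day 4 overlapped in IWP2 but not in the CT labels, where KO was the higher group in CT0.4 and the lower one in CT1.0.

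On day 8 the labels stood far apart. DLK1 in IWP2 had 3260 and 3350 TPM in KO, against 3251 and 3059 TPM in WT, which placed it 28th to 32nd among all genes of these libraries, with 0.306 to 0.335% of all TPM. In CT0.4 it had 19.7 and 8.39 TPM in KO, against 16.6 and 18.97 TPM in WT. Levels in CT1.0 were 49.9 and 95.3 TPM in KO, against 184 and 275 TPM in WT. The KO mean of day 8 was 5.80-fold above that of day 4 in IWP2, 20.2-fold below it in CT0.4 and 4.78-fold below it in CT1.0. In WT it was 6.06-fold above, 11.5-fold below and 3.385-fold below. No library of day 8 overlapped those of day 4 in these 6 comparisons. Libraries parted in the same direction for 28.4% (IWP2), 20.6% (CT0.4) and 28.6% (CT1.0) of all tested genes in KO, and for 30.4%, 15.0% and 11.6% in WT.

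MEG3 was, like DLK1, highest in IWP2 on day 8, and the 2 genes parted KO from WT in opposite directions in CT1.0 on day 4. In ES cells it had 0.265 and 0.101 TPM in KO, against 0.0498 and 0.0488 TPM in WT. In IWP2 on day 4 it had 9.11 and 7.46 TPM in KO, against 9.06 and 8.05 TPM in WT. In CT0.4 on day 4 it had 8.38 and 6.94 TPM in KO, against 3.29 and 4.47 TPM in WT. Under CT1.0 on day 4 it had 5.53 and 5.55 TPM in KO, against 1.84 and 2.90 TPM in WT. The KO libraries were thus above the WT libraries in both CT labels on day 4.

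On day 8 MEG3 in IWP2 had 47.5 and 30.3 TPM in KO, against 42.3 and 27.2 TPM in WT, the highest values of the series. CT0.4 cultures had 0.137 and 0.0407 TPM in KO, against 0.103 and 0.241 TPM in WT, no more than in ES cells of KO. CT1.0 cultures had 0.764 and 0.878 TPM in KO, against 1.08 and 2.46 TPM in WT. A transcript that all day 4 cultures held at 1.84 TPM or more was therefore close to 0 in CT0.4 by day 8 in both genotypes.

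DIO3 came later than DLK1 and MEG3. In ES cells it had 0.108 and 0 TPM in KO, against 0.182 and 0 TPM in WT. On day 4 it had 0.700 and 1.11 TPM in KO IWP2, against 0.680 and 1.48 TPM in WT IWP2. In CT0.4 it had 0.717 and 0.511 TPM in KO, against 0.543 and 0.356 TPM in WT. CT1.0 was the highest label of day 4, with 1.26 and 1.67 TPM in KO, against 2.62 and 2.19 TPM in WT.

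On day 8 DIO3 had 39.4 and 34.7 TPM in KO IWP2, against 29.4 and 30.7 TPM in WT IWP2. CT0.4 held 0.656 and 0.988 TPM in KO, against 0.486 and 0.124 TPM in WT. CT1.0 held 3.01 and 7.67 TPM in KO, against 24.6 and 25.4 TPM in WT. The WT CT1.0 cultures thus came close to those of IWP2, while the KO CT1.0 cultures did not. In CT1.0, where DLK1 was lower on day 8 than on day 4, DIO3 was higher, 3.65-fold in KO and 10.4-fold in WT.

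DIO3OS is the non-coding RNA read away from DIO3. In ES cells it had 0.0698 and 0.203 TPM in KO, against 0.166 and 0.368 TPM in WT. On day 4 all 12 libraries lay between 0.294 and 1.94 TPM, and KO and WT overlapped under each label. In IWP2 on day 8 it had 39.2 and 34.3 TPM in KO, against 24.4 and 19.7 TPM in WT. In CT0.4 on day 8 it had 3.80 and 3.38 TPM in KO, against 1.64 and 2.02 TPM in WT. Under CT1.0 on day 8 it had 2.77 and 10.1 TPM in KO, against 25.7 and 23.97 TPM in WT. KO was thus above WT in IWP2 and CT0.4 and below it in CT1.0, and the KO lines of CT1.0 differed from each other more than those of any other DIO3OS group on day 8.

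The row named MEG8 (ENSG00000258399.7) was at 0 in 21 of 28 libraries. Its highest value was 0.283 TPM, in KO line 26 in IWP2 on day 8, and the other line of that group was at 0. No fold is given for it.

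**Figure D1:**
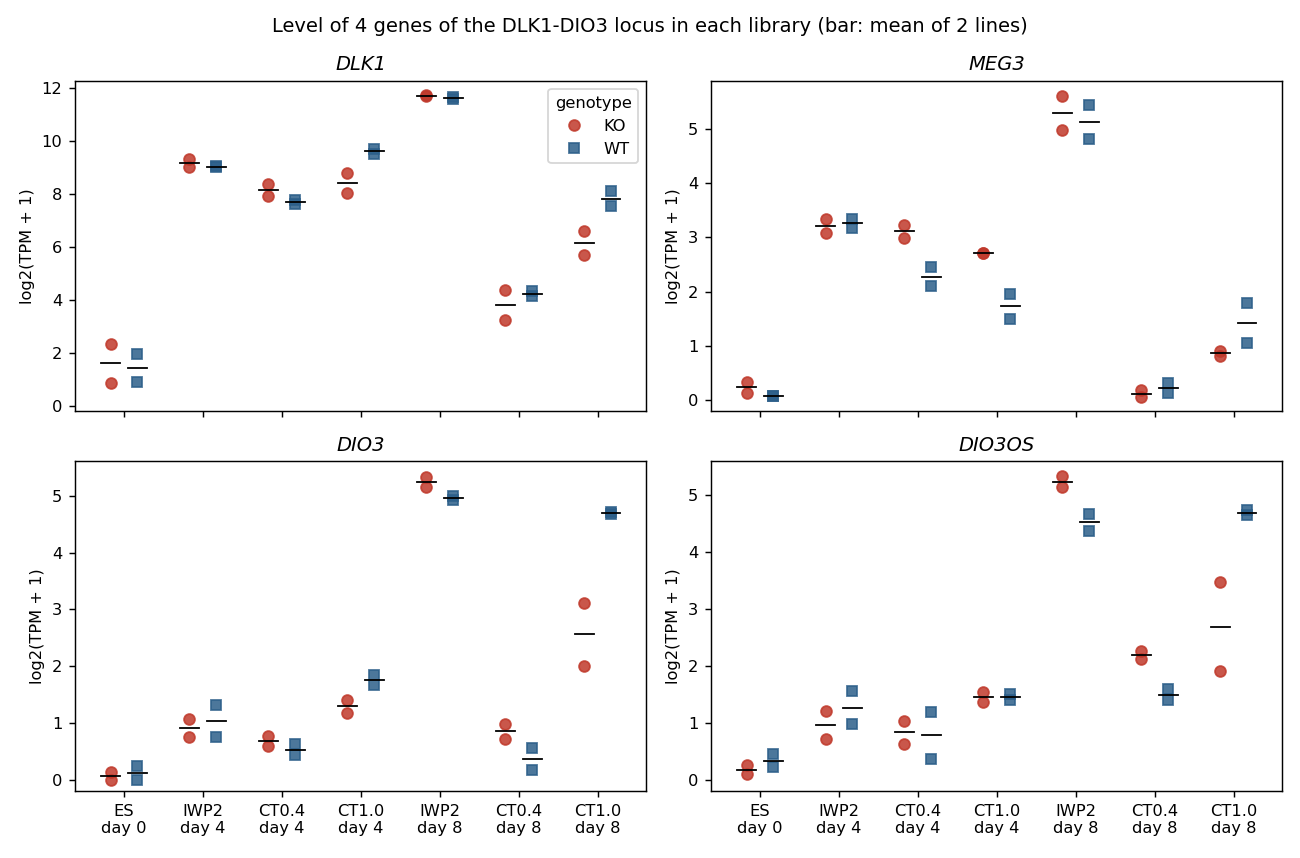
Level of DLK1, MEG3, DIO3 and DIO3OS in each of the 28 libraries, as log2(TPM + 1) on the vertical axis, by condition, with KO circles left of WT squares and a bar at the mean of the 2 lines. All 4 genes are high in IWP2 on day 8, and in CT1.0 on day 8 the KO circles lie below the WT squares, for example at 3.01 and 7.67 TPM against 24.6 and 25.4 TPM of DIO3.

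Ordered by group mean, DLK1 ran IWP2 day 8 (KO, then WT), WT CT1.0 day 4, IWP2 day 4 (KO, then WT), KO CT1.0 and KO CT0.4 day 4, WT CT1.0 day 8, WT CT0.4 day 4, KO CT1.0 day 8, CT0.4 day 8 (WT, then KO) and ES (KO, then WT). Neighbours in this order whose libraries overlapped were KO and WT in IWP2 on day 4, KO CT1.0 with KO CT0.4 on day 4, KO CT0.4 on day 4 with WT CT1.0 on day 8, that group with WT CT0.4 on day 4, WT and KO in CT0.4 on day 8, and KO and WT in ES. MEG3 had IWP2 day 8 first, then the day 4 groups, then CT1.0 day 8, with both CT0.4 day 8 groups among the ES groups at the end. DIO3 had IWP2 day 8, WT CT1.0 day 8 and KO CT1.0 day 8 first, and none of these 4 groups overlapped its neighbour. DIO3OS had KO IWP2 day 8 first, then WT CT1.0 and WT IWP2 day 8, which overlapped. All 4 IWP2 libraries of day 8 were above the other 24 for DLK1, MEG3 and DIO3 but not for DIO3OS, a pattern shown by 1.57% of all tested genes. The closest was DIO3, with 29.4 TPM in the lowest IWP2 library and 25.4 TPM in the highest other one.

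The WT cultures of day 8 show how the labels differ where SOX1 is intact. CT0.4 was below IWP2 in all 4 members, and libraries of 25.6% of all tested genes parted in that direction and of 23.0% in the other. The log2 differences were -7.39 for DLK1 (SE 0.447), -4.90 for MEG3 (SE 0.269), -4.59 for DIO3 (SE 0.288) and -3.02 for DIO3OS (SE 0.375). For DLK1 that is 177-fold on the TPM scale. CT1.0 was below IWP2 in 3 of 4 members (33.4% of all tested genes, with 15.7% above), with -3.81 for DLK1, -3.70 for MEG3 and -0.26 for DIO3. The libraries of DIO3OS overlapped, at a difference of 0.17. CT1.0 was above CT0.4 in all 4 members (17.7% of all tested genes, with 31.3% below), by 3.59 for DLK1, 1.20 for MEG3, 4.33 for DIO3 and 3.19 for DIO3OS. These comparisons share the WT IWP2 or CT libraries. DLK1 and MEG3 at one end of the locus and DIO3 and DIO3OS at the other thus stood differently in WT CT1.0, where the first pair was 13.8-fold and 19.65-fold below IWP2, DIO3 was 1.20-fold below it and DIO3OS 1.13-fold above it.

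In KO the labels of day 8 ran the same way for CT0.4, with differences from IWP2 of -7.89 for DLK1, -5.16 for MEG3, -4.39 for DIO3 and -3.04 for DIO3OS, all 4 parted (24.8% of all tested genes were lower and parted, and 24.9% higher). In KO CT1.0 all 4 were below IWP2 (37.8% of all tested genes, with 13.2% above), by -5.56 for DLK1, -4.42 for MEG3, -2.69 for DIO3 and -2.545 for DIO3OS. Between KO CT1.0 and KO CT0.4, 3 of 4 members were higher and parted (14.7% of all tested genes, with 37.9% lower), and DIO3OS overlapped, at 2.77 and 10.1 TPM in CT1.0 and 3.80 and 3.38 TPM in CT0.4. In WT, cell type markers of day 8 moved with the label. Of the surface ectoderm, KRT8, KRT18, KRT19 and GATA3 summed to 41.2 and 52.1 TPM in WT CT1.0 and to 296 and 228 TPM in WT CT0.4, against 286 and 276 TPM in WT IWP2. The 5 neural progenitor markers other than SOX1 summed to 1580 and 1462 TPM in WT CT1.0 and 1259 and 1443 TPM in WT CT0.4, against 1048 and 1044 TPM in WT IWP2. Neuronal markers summed to 727 and 599 TPM in WT CT1.0 and 319 and 267 TPM in WT CT0.4, against 308 and 309 TPM in WT IWP2. Mesenchyme markers summed to 14.1 and 9.76 TPM in WT CT1.0 and 118.5 and 92.7 TPM in WT CT0.4, against 22.7 and 25.3 TPM in WT IWP2, and mesoderm markers summed to at most 0.903 TPM in WT CT1.0 and 4.67 TPM in WT CT0.4, against 1.48 TPM in WT IWP2. In KO on day 8 the 5 progenitor markers summed to 546 and 843 TPM in CT1.0, against 991 and 1080 TPM in IWP2. Neuronal markers summed to 127.5 and 297 TPM in KO CT1.0, against 341 and 320 TPM in KO IWP2. Both lists were thus lower in CT1.0 than in IWP2 in KO and higher in WT. Mesoderm markers went the other way, at 2.25 TPM or less. Surface ectoderm and mesenchyme markers were lower in CT1.0 than in IWP2 in both genotypes. The sums hide markers of 1 list that limma called in opposite directions. Against WT IWP2, SOX2 was lower and SOX3 higher in both CT labels. In CT0.4, DCX and KRT18 were lower while ELAVL4 and KRT19 were higher, and in CT1.0 LUM was lower while COL3A1 was higher. The part of these markers in the members' differences was not tested.

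**Figure D2:**
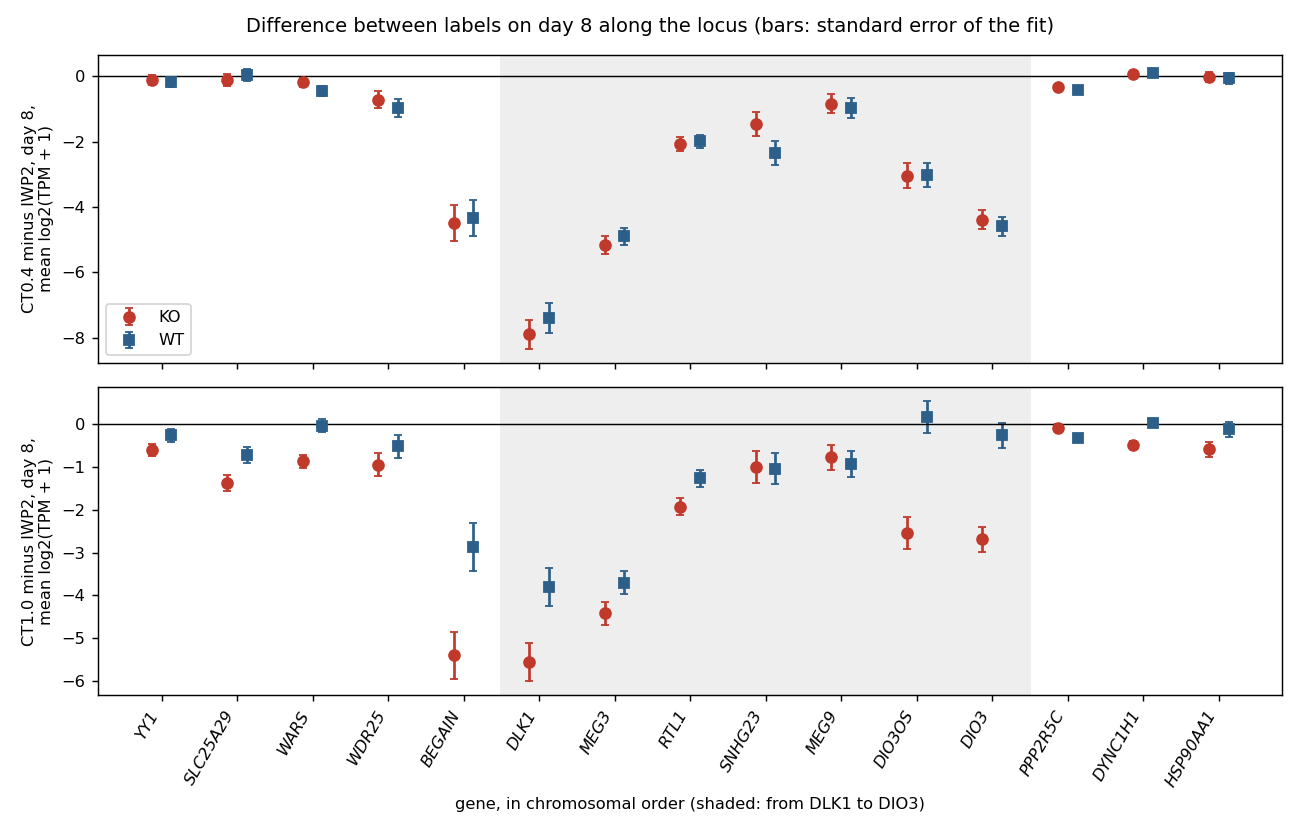
Difference from IWP2 on day 8 of CT0.4 (upper panel) and CT1.0 (lower panel), in mean log2(TPM + 1), for genes in and around the locus in chromosomal order, with KO circles left of WT squares and bars of 1 SE of the fit; shading marks DLK1 to DIO3. CT0.4 lies below 0 in every gene shown from BEGAIN to DIO3 in both genotypes, from -0.84 in MEG9 to -7.89 in DLK1 of KO, and in CT1.0 the WT squares of DIO3OS and DIO3 are at 0.17 and -0.26 while the KO circles are at -2.545 and -2.69. Outside that stretch, WDR25 (-0.98 in WT and -0.72 in KO), PPP2R5C, WARS, YY1 and HSP90AA1 also lie below 0 in CT0.4 in both genotypes. SLC25A29 and DYNC1H1 do not.

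For DLK1, DIO3 and DIO3OS the KO and WT means lay farthest apart in CT1.0 on day 8. All 4 members were lower in KO with no overlap of libraries, and 30.2% of all tested genes parted in that direction. The log2 differences were -1.69 for DLK1 (SE 0.447), -0.56 for MEG3 (SE 0.269), -2.14 for DIO3 (SE 0.288) and -2.00 for DIO3OS (SE 0.375), which is 3.16-fold, 2.15-fold, 4.675-fold and 3.87-fold on the TPM scale. With 1 line left out the difference ranged from -2.15 to -1.23 for DLK1, from -0.926 to -0.191 for MEG3, from -2.69 to -1.58 for DIO3 and from -2.78 to -1.22 for DIO3OS. As the libraries did not overlap, it could not turn above 0 in any of these fits. In the KO libraries all 4 members were lower in line 26 than in line 48, a comparison of 1 library with 1. In bulk RNA, fewer cells of a type and less RNA per cell cannot be told apart.

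Cell type markers moved with this comparison. The 5 neural progenitor markers other than the deleted gene (SOX2, SOX3, PAX6, NES and CDH2) summed to 546 and 843 TPM in KO CT1.0 on day 8, against 1580 and 1462 TPM in WT, and 4 of the 5 fell by the test. The 4 neuronal markers (DCX, ELAVL4, STMN2 and TUBB3) summed to 128 and 297 TPM in KO, against 727 and 599 TPM in WT, and 3 of 4 fell. The 4 neural crest markers summed to 30.6 and 33.2 TPM in KO, against 12.2 and 6.57 TPM in WT, and SOX10 and TFAP2B rose. Surface ectoderm markers summed to 96.2 and 71.8 TPM in KO, against 41.2 and 52.1 TPM in WT, and the 3 keratins of 4 markers rose. Endoderm markers (SOX17, FOXA2, GATA4 and AFP) summed to at most 0.8185 TPM in KO and 2.41 TPM in WT. The tests were limma's, with p adjusted over all tested genes, of which 4.34% rose and 9.96% fell in this comparison. Without WT line 1 the markers called were none of these 5 neural progenitor markers, none of the neurons, none of the neural crest and 1 of the surface ectoderm higher. Without WT line 2 they were 0, 1, 0 and 3 (with GATA3 then lower), and without KO line 26 they were 3, 1, 1 and 0. The part of these cell types in the members' difference was not tested.

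In CT1.0 on day 4 the members were split. MEG3 was the 1 member higher in KO with parted libraries (41.1% of all tested genes), by 0.98 (SE 0.269), and DLK1 and DIO3 were lower in KO with parted libraries (13.1% of all tested genes), by -1.20 and -0.47. DIO3OS differed by -0.01. Against the shift of 0.195 over all genes, MEG3 stayed above it and DLK1 and DIO3 below it. With the median-ratio scaling the values were 0.784 for MEG3, -1.47 for DLK1 and -0.662 for DIO3. The WT libraries of this comparison are 2 of the 4 that stood apart. By limma's test 12.4% of all tested genes rose and 2.49% fell in this comparison. The 5 neural progenitor markers other than SOX1 summed to 603 and 793 TPM in KO, against 976.5 and 1083 TPM in WT, and SOX3, NES and CDH2 fell by limma's test. That count of 3 was 1 without WT line 1, 0 without WT line 2 and 2 without KO line 26. Of 4 surface ectoderm markers KRT18 rose, a call that ended with the median-ratio scaling and without WT line 1, WT line 2 or KO line 26. The part of these in the members' values was not tested.

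In CT0.4 on day 4, DLK1 and MEG3 were higher in KO with parted libraries (33.7% of all tested genes, with 11.0% lower), by 0.45 (SE 0.447) and 0.83 (SE 0.269), over a shift of all genes of 0.128. The DLK1 difference was about the size of its SE. DIO3 and DIO3OS overlapped, at 0.15 and 0.05, and DIO3OS went to -0.0229 with the median-ratio scaling.

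In IWP2 the genotypes were close. On day 4 none of the 4 members parted (15.4% of all tested genes were higher and 18.0% lower with parted libraries). On day 8, DLK1, DIO3 and DIO3OS were higher in KO with parted libraries (15.0% of all tested genes), by 0.07, 0.29 and 0.72, and MEG3 overlapped, at 0.16. Of these the DIO3OS difference, 1.67-fold on the TPM scale, exceeded its SE of 0.375, that of DIO3 was about the size of its SE of 0.288, and those of DLK1 and MEG3 were below theirs. In CT0.4 on day 8, DIO3 and DIO3OS were higher in KO with parted libraries (19.9% of all tested genes), by 0.49 and 0.70, at levels of 0.988 TPM or less for DIO3, and DLK1 and MEG3 overlapped, at -0.43 and -0.11. In ES cells MEG3 was the 1 member with parted libraries, higher in KO (18.6% of all tested genes), at 0.265 TPM or less.

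**Figure D3:**
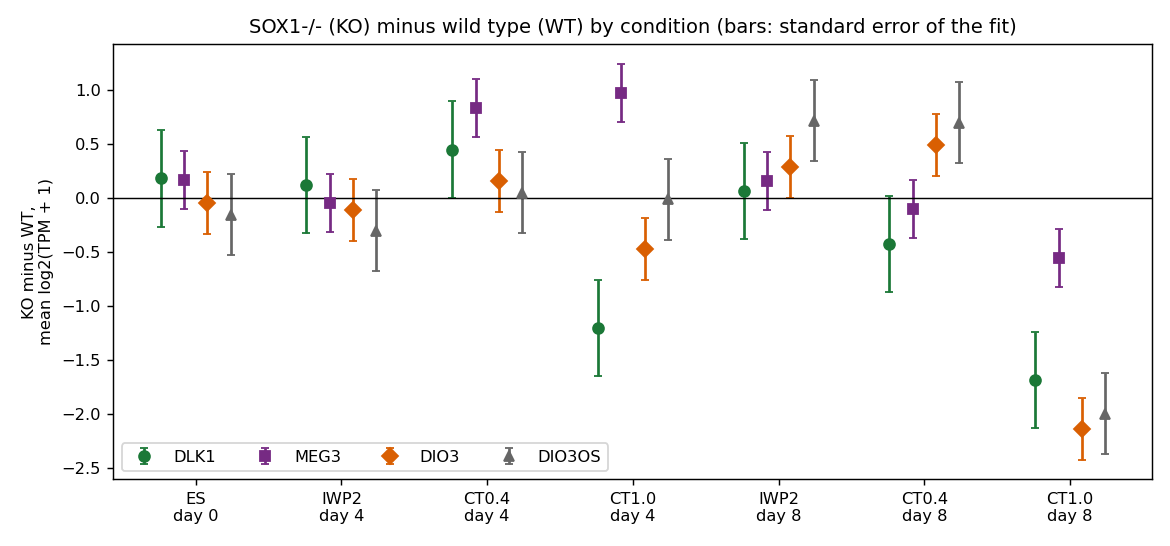
KO minus WT difference in mean log2(TPM + 1) on the vertical axis for DLK1, MEG3, DIO3 and DIO3OS in each of the 7 conditions, with bars of 1 SE of the fit. In CT1.0 on day 8 all 4 lie below 0, from -0.56 to -2.14, and in CT1.0 on day 4 MEG3 is at 0.98 while DLK1 is at -1.20.

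Setting the levels of 2 members of 1 library side by side gives a value that does not depend on the scaling of that library. DLK1 per MEG3 was 47.1 and 78.2 in KO CT1.0 on day 4, against 398 and 283.5 in WT, the highest of the series. In CT0.4 on day 4 it was 38.9 and 34.7 in KO, against 66.2 and 43.1 in WT. In IWP2 it lay between 56.5 and 84.0 on day 4 and between 68.7 and 112.5 on day 8 in the 4 libraries of each day. DIO3 per DIO3OS was 1.01 and 1.01 in KO IWP2 on day 8, against 1.20 and 1.56 in WT, and 1.09 and 0.762 in KO CT1.0 on day 8, against 0.955 and 1.06 in WT. It was lower in CT0.4 on day 8, with 0.173 and 0.292 in KO, against 0.297 and 0.0613 in WT, the label in which DIO3 stayed at or below 0.988 TPM while DIO3OS reached 3.80 TPM.

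Across the 14 group means of log2(TPM + 1), DIO3 with DIO3OS had a Pearson correlation of 0.968 and DLK1 with MEG3 of 0.901. Across the ends it was 0.655 for DLK1 with DIO3 and 0.500 for MEG3 with DIO3OS. These points share lines, libraries and scaling, and DIO3 and DIO3OS lie next to each other. Candidates for a similar pattern were 13278 tested genes with a group mean of at least 5 TPM. Members, pseudogenes, short RNAs, genes named after clones and repeated names were left out. The candidates with the most similar pattern are given here. For DLK1 they were SMOC1, a secreted matrix protein that binds calcium (0.957), PRSS23, a serine protease (0.947), and SOX11, a transcription factor of young neurons (0.939). For MEG3 they were USP54 (0.944), the sialyltransferase gene ST6GALNAC5 (0.944) and the neurexin gene NRXN2 (0.942). For DIO3 they were FAM13C (0.934), MPPED1 (0.927) and RELL1 (0.918), and for DIO3OS USP40 (0.943), PHYHIPL (0.939) and FAM13C (0.934). With a Spearman correlation 10 of these 12 were no longer among the first 3.

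SMOC1, the candidate most like DLK1, had 52.6 and 100.3 TPM in KO CT1.0 on day 8, against 168 and 155 TPM in WT. In IWP2 on day 8 it had 262 and 235.5 TPM in KO, against 217.5 and 227.5 TPM in WT. In CT0.4 on day 8 it had 14.45 and 7.74 TPM in KO, against 8.24 and 11.85 TPM in WT. Its labels thus stood in the order of DLK1, with less between CT1.0 and IWP2 in WT. MPPED1 had 75.8 and 94.6 TPM in KO IWP2 on day 8, against 109 and 90.3 TPM in WT. In CT1.0 on day 8 it had 2.17 and 5.04 TPM in KO, against 20.7 and 21.4 TPM in WT.

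Between the ends of the locus the table has 124 rows, of which 119 are no members. Of these, 54 are microRNA and 47 small nucleolar RNA rows, and 1 of each kind passed the filter. Such short RNAs are not reliably measured in poly(A) libraries. The 7 rows that passed were tested in the fit across all genes. In WT CT0.4 against WT IWP2 on day 8, 4 of 7 fell and none rose, with a median log2 difference of -0.974, beside a median of 0 and 5.89% of genes fallen over all tested. In WT CT1.0 against WT IWP2, 3 of 7 fell and none rose (7.82% of all tested genes fell), and in WT CT1.0 against WT CT0.4, 2 of 7 rose and none fell (4.2% of all tested genes rose). A row could pass the filter through IWP2 on day 8 alone, as RTL1 did, with at most 0.861 TPM elsewhere. Such a row could hardly rise against IWP2, so the counts and the median against IWP2 are a description and no support for a fall. In the fit over all 28 libraries, none of the 7 was called by limma between KO and WT in any condition. This did not hold in every fit with a line left out. The log2 difference of the small nucleolar RNA row U3 was 3.54 in CT1.0 on day 4 without KO line 48. It was 2.98 in IWP2 on day 8 without KO line 26. That of RP11-168L7.1 was -1.2 in CT1.0 on day 4 without WT line 1. An unadjusted p under 0.05 was reached by 2 of 7 in IWP2 on day 4, 1 in IWP2 and 1 in CT1.0 on day 8, and 0 in the other 4 conditions. Of all tested genes, 0.219% were called between KO and WT in ES, 0.043% in IWP2, 4.24% in CT0.4 and 14.9% in CT1.0 on day 4, and 0.0609% in IWP2, 0.416% in CT0.4 and 14.3% in CT1.0 on day 8. Without WT line 1 the 3 WT counts were 3, 1 and 0, and without WT line 2 they were 2, 1 and 0.

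RTL1, whose protein is needed for placental vessels in mice, lies on the minus strand at chr14:100879753-100903722. It had 0 and 0 TPM in KO CT0.4 on day 8, against 0 and 0.0188 TPM in WT, and 2.94 and 3.49 TPM in KO IWP2, against 3.05 and 2.97 TPM in WT. In CT1.0 on day 8 it had 0 and 0.223 TPM in KO, against 0.603 and 0.738 TPM in WT. Outside IWP2 on day 8 it had at most 0.861 TPM, so it passed the filter through those libraries alone. In WT it was lower in CT0.4 than in IWP2 (log2 -1.99) and in CT1.0 than in IWP2 (log2 -1.27, and -1.19 without WT line 1). As RTL1 passed the filter through IWP2 on day 8, no p is given against that label. In WT it was higher in CT1.0 than in CT0.4 (log2 0.73, limma adjusted p = 0.0195). That call ended without WT line 1 or without line 2. The KO difference in CT1.0 on day 8 was -0.59 and missed the threshold (adjusted p = 0.056). It passed with a pseudocount of 0.1 (adjusted p = 0.0291), with the line as a block (adjusted p = 0.0338) and without KO line 48 (adjusted p = 0.0195). RTL1 lies opposite the row named MEG8 and SNHG23, and whether counting used strand was not given in the sources used here, so reads of these rows cannot be told apart.

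SNHG23 (ENSG00000225746.9), the row that GENCODE 29 calls MEG8, is at chr14:100894770-101038859 on the plus strand. On day 8 it had 2.88 and 1.72 TPM in KO IWP2, against 4.70 and 3.67 TPM in WT, and 0.853 and 0.417 TPM in KO CT1.0, against 1.08 and 2.04 TPM in WT. In CT0.4 it had 0.367 and 0 TPM in KO, against 0 and 0.0289 TPM in WT. In WT it was lower in CT0.4 than in IWP2 (log2 -2.35, limma adjusted p = 0.00025). It was higher in CT1.0 than in CT0.4 (log2 1.31, adjusted p = 0.0224), a call that ended without WT line 1 (adjusted p = 0.0847), without line 2 (adjusted p = 0.224) and with no filter (adjusted p = 0.0545). SNHG23 was not called between KO and WT in CT1.0 on day 8 (log2 -0.63, adjusted p = 0.304). MEG9, at chr14:101064151-101072937, never passed 1.53 TPM. It had 0 and 0 TPM in WT CT0.4 on day 8, against 0.939 and 0.988 TPM in WT IWP2 (limma adjusted p = 0.0378), a call that ended without WT line 1 (adjusted p = 0.265) or line 2 (adjusted p = 0.239), with no filter (adjusted p = 0.0593), the median-ratio scaling (adjusted p = 0.0704), the line as a block (adjusted p = 0.0503) and without the 4 WT day 4 CT libraries (adjusted p = 0.0508). In ES cells MEG9 had 1.53 and 0.303 TPM in KO and 0.154 and 1.20 TPM in WT.

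The remaining calls in the region were of MIR770, a microRNA row inside MEG3 whose reads cannot be told apart from it, and of the non-coding RP11-168L7.1. MIR770 had 0 and 0 TPM in WT CT1.0 on day 8, against 6.86 and 11.3 TPM in WT IWP2 (limma adjusted p = 0.00343). This call ended without WT line 1 or without line 2. RP11-168L7.1 had 0 and 0 TPM in WT CT1.0 on day 8, against 1.04 and 1.63 TPM in WT IWP2. It was at 0 in 23 of 28 libraries and never above 1.63 TPM. Its WT IWP2 libraries counted towards its passing the filter, so no p is given for it. MIR770 had 0 and 2.39 TPM in WT CT0.4 (limma adjusted p = 0.0257), and that call ended without WT line 1 (adjusted p = 0.457) or line 2 (adjusted p = 0.164), with a pseudocount of 0.1 (adjusted p = 0.106) and with no filter (adjusted p = 0.0726).

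Of the 8 flanking genes tested, BEGAIN (whose protein sits at synapses) was, like DLK1, MEG3 and DIO3, highest in IWP2 on day 8. It lies before DLK1, at chr14:100537147-100587413 on the minus strand. It had 75.2 and 86.3 TPM in KO IWP2 on day 8, against 74.1 and 82.5 TPM in WT. In CT0.4 it had 4.93 and 1.25 TPM in KO, against 2.95 and 2.87 TPM in WT, and in CT1.0 it had 0.443 and 1.57 TPM in KO, against 4.72 and 19.4 TPM in WT. All 4 IWP2 libraries of day 8 were above the other 24. In WT, CT0.4 was below IWP2 (log2 -4.34, limma adjusted p = 2.91e-05), and CT1.0 was below IWP2 (log2 -2.88, adjusted p = 0.00202), a call that ended without WT line 1 (log2 -2.04, adjusted p = 0.202). KO was below WT in CT1.0 on day 8 (log2 -2.49, adjusted p = 0.00662). That call ended without WT line 2, the library at 19.4 TPM (log2 -1.57, adjusted p = 0.176), and without KO line 26 (log2 -2.07, adjusted p = 0.176).

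Of the other 7 flanking genes that were tested (YY1, SLC25A29, WARS, WDR25, PPP2R5C, DYNC1H1 and HSP90AA1), SLC25A29, WDR25 and PPP2R5C also had their highest group mean in IWP2 on day 8, but the lowest of the 14 group means was at least 31.0% of the highest in each of the 7, against 1.25% for BEGAIN and 0.0559% for DLK1. WDR25 was the other flanking gene with all 4 IWP2 libraries of day 8 above the rest, at 9.77 TPM or more against 8.39 TPM or less. In these 7 genes the day 8 differences of WT CT0.4 and CT1.0 from WT IWP2 lay between -0.98 and 0.09. WDR25 fell in CT0.4 against IWP2 (log2 -0.98, limma adjusted p = 0.0203), PPP2R5C fell in CT0.4 (log2 -0.44, adjusted p = 0.00361) and in CT1.0 (log2 -0.31, adjusted p = 0.036), and SLC25A29 fell in CT1.0 against IWP2 (log2 -0.72, adjusted p = 0.0142) and against CT0.4 (log2 -0.77, adjusted p = 0.00735). With BEGAIN, 3 of 8 fell in CT0.4 against IWP2, 3 in CT1.0 against IWP2 and 1 in CT1.0 against CT0.4 (5.89%, 7.82% and 10.1% of all tested genes). Each of the 5 calls other than those of BEGAIN ended without WT line 1 (adjusted p = 0.277, 0.202, 0.508, 0.339 and 0.137) and without WT line 2 (adjusted p = 0.292, 0.0781, 0.179, 0.143 and 0.175), and that of PPP2R5C in CT1.0 also with no filter (adjusted p = 0.0618) and the median-ratio scaling (adjusted p = 0.432). KO fell below WT in CT1.0 on day 8 for 4 of these 7, WARS (log2 -0.88), HSP90AA1 (log2 -0.51), YY1 (log2 -0.45) and DYNC1H1 (log2 -0.42), with limma adjusted p of 0.00124, 0.0464, 0.0471 and 0.00555. All 4 of these calls ended without WT line 1 (adjusted p = 0.087, 0.444, 0.135 and 0.176) and without KO line 26 (adjusted p = 0.0698, 0.187, 0.275 and 0.0948). Those of HSP90AA1 and YY1 ended also without WT line 2 (adjusted p = 0.181 and 0.195), with no filter (adjusted p = 0.12 and 0.101) and with the median-ratio scaling (adjusted p = 0.103 and 0.121), that of YY1 without KO line 48 (adjusted p = 0.143) and that of HSP90AA1 without the 4 WT day 4 CT libraries (adjusted p = 0.0642). With BEGAIN, 5 of 8 fell (9.96% of all tested genes), with a median of -0.476 beside -0.0235 over all genes. That count was 3 with the median-ratio scaling and with no filter, 1 without WT line 1, 2 without WT line 2 and 0 without KO line 26. On day 4, KO was above WT for HSP90AA1 in CT1.0 (log2 0.52, limma adjusted p = 0.0426) and for DYNC1H1 in CT0.4 (log2 0.41, adjusted p = 0.017). Both calls ended with the median-ratio scaling (adjusted p = 0.304 and 0.107), without WT line 1 (adjusted p = 0.348 and 0.297), without WT line 2 (adjusted p = 0.209 and 0.0642) and without KO line 26 (adjusted p = 0.0848 and 0.0589), that of HSP90AA1 with no filter (adjusted p = 0.109) and that of DYNC1H1 without KO line 48 (adjusted p = 0.172). WARS was lower in KO in CT1.0 on day 4 (log2 -0.49, limma adjusted p = 0.0377), a call that ended with no filter (adjusted p = 0.0903) and without each of the lines (adjusted p = 0.0638 to 0.256).

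**Figure D4:**
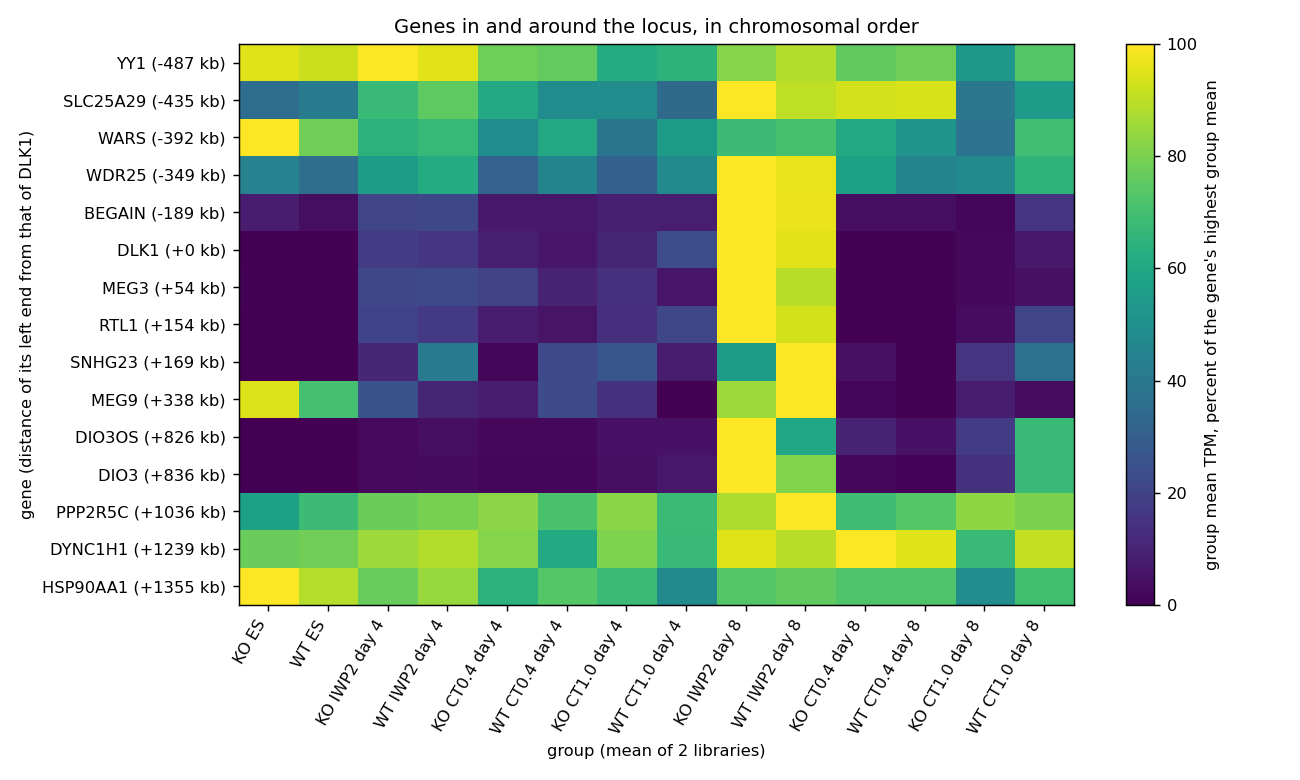
Group mean TPM of genes in and around the locus, as percent of each gene's highest group mean (colour), with genes down the page in chromosomal order and their distance from DLK1 in kb, and the 14 groups across it, KO left of WT in each condition. The block from BEGAIN to RTL1 is bright in IWP2 on day 8, DIO3OS and DIO3 are bright there and in WT CT1.0 on day 8, and no group mean of the 7 flanking genes other than BEGAIN is below 31.0% of that gene's highest.

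Genes that keep imprints and DNA methylation in place were taken as a list of 17, of which 15 were tested. In KO CT1.0 on day 8, 1 rose and 6 fell, with a median of -0.355 beside -0.0235 over all tested genes (4.34% of which rose and 9.96% fell). UHRF1, which brings DNMT1 to newly copied DNA, had 18.2 and 35.0 TPM in KO, against 62.9 and 56.0 TPM in WT (log2 -1.20, limma adjusted p = 0.00183). TRIM28, the corepressor that ZFP57 and ZNF445 recruit to imprinted control regions, had 305 and 293 TPM in KO, against 504 and 429 TPM in WT (log2 -0.64, adjusted p = 0.000184). CTCF, an insulator protein, fell by 0.53 (adjusted p = 0.000972) and TET3, which oxidises methylated cytosine, fell by 0.56 (adjusted p = 0.00798). The call of TRIM28 held with each line left out (adjusted p up to 0.0297). Those of UHRF1, CTCF and TET3 ended without WT line 1 (adjusted p = 0.118, 0.0868 and 0.163), and those of UHRF1 and TET3 also without KO line 26 (adjusted p = 0.0722 and 0.142), that of UHRF1 also without WT line 2 (adjusted p = 0.0622). The list's count was 0 higher and 1 lower without WT line 1, 0 and 3 without WT line 2, and 0 and 2 without KO line 26. DNMT3A, a methyltransferase that sets new methylation, was not called, with 57.7 and 56.2 TPM in KO, against 48.8 and 50.8 TPM in WT.

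In WT on day 8 the same list had 1 of 15 higher and 4 lower in CT0.4 than in IWP2 (6.29% of all tested genes rose and 5.89% fell), and 1 higher and 3 lower in CT1.0 than in IWP2 (2.97% rose and 7.82% fell). DNMT3B, the methyltransferase most active in early embryos, had 18.0 and 22.8 TPM in CT0.4, with 34.0 and 37.4 TPM in CT1.0, against 80.0 and 79.8 TPM in IWP2, with log2 differences of -1.93 (limma adjusted p = 2.54e-08) and -1.14 (adjusted p = 2.06e-05). JARID2, a cofactor of the Polycomb complex, had 18.5 and 18.9 TPM in CT0.4, with 16.7 and 17.2 TPM in CT1.0, against 35.3 and 39.5 TPM in IWP2 (limma adjusted p = 3.25e-07 and 1.25e-07). The calls of DNMT3B and JARID2 held with each line left out, at adjusted p of up to 0.022. In CT1.0 on day 4, KO had TET1, another cytosine oxidase, at 29.6 and 25.9 TPM, against 13.8 and 12.8 TPM in WT (log2 1.01, limma adjusted p = 5.23e-05), above the shift of all genes, and 3 of 15 rose and 1 fell (12.4% of all tested genes rose and 2.49% fell). The direction of the list turned with the median-ratio scaling, with 1 higher and 5 lower. In all, 1 gene was called there without WT line 1 and 2 without WT line 2 or without KO line 26. In WT CT0.4 against IWP2, 2 were called without either WT line.

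Imprinted genes of other loci were taken as a list of 29, of which 24 were tested. In KO CT1.0 on day 8, 2 rose and 3 fell, with a median of -0.0821 beside -0.0235 over all genes (3 and 1 with the median-ratio scaling, 0 and 0 without WT line 1, 0 and 1 without WT line 2, 1 and 1 without KO line 26). Of all tested genes, 4.34% rose and 9.96% fell in this comparison. H19, a non-coding RNA that is maternally expressed, had 2.76 and 2.95 TPM in KO, against 0 and 0.202 TPM in WT (limma adjusted p = 0.00417). ZDBF2, which is paternally expressed, rose by 0.58 (adjusted p = 0.0256). MAGEL2, of the Prader-Willi region, had 2.35 and 3.63 TPM in KO, against 5.54 and 5.63 TPM in WT (log2 -0.74, limma adjusted p = 0.0373), and GNAS, which encodes a G protein subunit, had 575 and 656 TPM in KO, against 915 and 839 TPM in WT (log2 -0.51, adjusted p = 0.000576). All 4 of these calls ended without WT line 1 (adjusted p = 0.171 for H19, 0.134 for ZDBF2, 0.247 for MAGEL2 and 0.0724 for GNAS), those of H19, ZDBF2 and MAGEL2 also without WT line 2 (adjusted p = 0.0976, 0.198 and 0.222), and those of ZDBF2 and MAGEL2 also without KO line 26 (adjusted p = 0.374 and 0.274). That of MAGEL2 ended also with a pseudocount of 0.1 (adjusted p = 0.104) and the median-ratio scaling (adjusted p = 0.0678).

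In WT on day 8, 6 of the 24 rose and 3 fell in CT0.4 against IWP2 (6.29% and 5.89% of all tested genes), and 3 rose and 6 fell in CT1.0 against IWP2 (2.97% and 7.82%). In all, 2 genes were called in each without WT line 1, and 2 and 3 without WT line 2. PLAGL1, a zinc finger gene that is paternally expressed, had 22.2 and 23.3 TPM in CT0.4, with 21.2 and 21.9 TPM in CT1.0, against 5.91 and 5.95 TPM in IWP2 (limma adjusted p = 0.000629 and 0.00112). The calls of PLAGL1 ended without WT line 1 (adjusted p = 0.109 in CT0.4 and 0.137 in CT1.0) or line 2 (adjusted p = 0.0999 and 0.136). BLCAP, which surrounds the imprinted NNAT, had 62.1 and 62.5 TPM in CT0.4, with 53.6 and 56.0 TPM in CT1.0, against 112 and 129 TPM in IWP2 (limma adjusted p = 1.9e-05 and 3.45e-06), and its calls held with each line left out (adjusted p up to 0.033).

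The genes that handle thyroid hormone, on which DIO3 acts, were a list of 13 with 10 tested. In WT CT0.4 against IWP2 on day 8, 2 rose and 2 fell (6.29% and 5.89% of all tested genes), and 2 in all were called without WT line 1 or without line 2. TTR, a carrier of thyroid hormone, had 41.0 and 13.4 TPM in CT0.4, and was listed at 0 and 0 TPM in IWP2 (limma adjusted p = 4.09e-08). SLC16A10, a transporter, had 14.1 and 11.2 TPM in CT0.4, against 2.25 and 2.92 TPM in IWP2 (log2 1.93, limma adjusted p = 3.87e-06), and both calls held with each line left out (adjusted p up to 0.0224). In WT on day 8, CT0.4 was thus the label with the least DIO3 and the most TTR and SLC16A10. Between genotypes in CT0.4 on day 8, DIO3 and TTR were both higher in KO. TTR had 103 and 65.5 TPM in KO, against 41.0 and 13.4 TPM in WT (limma adjusted p = 0.0277), the 1 call among the 10 (0.416% of all tested genes). That call ended with a pseudocount of 0.1 (adjusted p = 0.482), without WT line 2 and without either KO line. In WT CT1.0 against IWP2, 2 fell and 0 rose (7.82% and 2.97% of all tested genes, and 1 and 1 of the list with the median-ratio scaling), and 0 were called without WT line 1 or line 2. THRA, a hormone receptor, had 12.6 and 13.4 TPM, against 19.1 and 20.3 TPM (log2 -0.57, limma adjusted p = 0.00712), and the call ended without WT line 1 (adjusted p = 0.229) or line 2 (adjusted p = 0.216), and with the median-ratio scaling (adjusted p = 0.0554). Between KO and WT in CT1.0 on day 8 none of the 10 was called by limma (0 of 10 had an unadjusted p under 0.05), and the corepressor gene NCOR1 stood at 65.4 and 65.1 TPM in KO, against 76.2 and 68.7 TPM in WT.

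DLK1 resembles the ligands of NOTCH, and 13 genes of that pathway were tested. In KO CT1.0 on day 8, 1 rose and 2 fell, close to the 4.34% and 9.96% of all tested genes, with a median of -0.299 beside -0.0235 over all genes. HES5, a NOTCH target of neural progenitors, had 8.10 and 24.4 TPM in KO, against 58.8 and 71.4 TPM in WT (log2 -2.12, limma adjusted p = 0.022). NOTCH1, a receptor, had 10.5 and 10.8 TPM in KO, against 15.4 and 15.5 TPM in WT (log2 -0.50, adjusted p = 0.0128), and DNER, a ligand of neurons, rose by 1.11 (adjusted p = 0.0248). These 3 calls ended without WT line 1 (adjusted p = 0.212, 0.0945 and 0.163), without WT line 2 (adjusted p = 0.233, 0.0743 and 0.188) and without KO line 26 (adjusted p = 0.171, 0.157 and 0.268), and that of NOTCH1 also without KO line 48 (adjusted p = 0.0669). With no filter those of HES5 and DNER ended (adjusted p = 0.0614 and 0.0552), and that of HES5 with a pseudocount of 0.1 (adjusted p = 0.149). In WT CT1.0 against IWP2, 2 rose and 4 fell (2.97% and 7.82% of all tested genes), among them NOTCH1, with 15.4 and 15.5 TPM, against 45.0 and 44.5 TPM (log2 -1.48, limma adjusted p = 4.19e-07, up to 0.00143 with 1 line left out). In WT CT0.4 against IWP2, 4 rose and 5 fell (6.29% and 5.89% of all tested genes). Without WT line 1, 1 gene of the list was called in each of these comparisons, and without line 2, 1 in the first and 3 in the second.

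Within a genotype no member had the same line above the other in all 7 conditions. DLK1 was higher in KO line 48 than in line 26 in 5 of 7 conditions, and MEG3 in 2 of 7. In WT, line 2 was above line 1 in 3 of 7 for DLK1 and DIO3 and in 4 of 7 for MEG3 and DIO3OS. Of all tested genes, line 48 was above line 26 in all 7 conditions for 1.77% and below it for 1.06%, and WT line 2 was above line 1 for 0.634% and below it for 0.469%. The widest gap between lines of 1 group was in DIO3OS of KO CT1.0 on day 8, where log2(TPM + 1) was 1.55 higher in line 48 than in line 26.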

How the data were processed

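Poly(A) RNA of 28 libraries of H9 cells (14 groups of 2) was sequenced. The authors deposited gene-level TPM. CASAVA 1.7, Salmon 0.8.2 and hg38 are named in the submitters' processing notes, without their roles, and which annotation release was used was not given in the sources used here. TPM keeps no read depth, so precision rests on the replicate spread alone. All 28 value columns were mapped to samples by their names, and 0 were left unmapped.

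Members were matched by gene name, and coordinates came from GENCODE 29 on GRCh38 by identifier. log2(TPM + 1) was fitted with limma 3.58.1 (R 4.3.3, with version 1.17.8 of data.table), 1 mean per group over all 28 libraries, an intensity trend, and Benjamini-Hochberg adjustment over the 27912 genes with a TPM of at least 1 in at least 2 libraries. A call is an adjusted p below 0.05. The residual degrees of freedom were 14 and the prior 2.76. The fit was tested on simulated data. Members and lists were chosen with earlier results of these data known, so members have no p. Of each list, apart from counts, the text names genes from the 4 called with the largest change and the 2 most abundant not called, for each comparison. For the region and the flanking genes every tested gene could be named. The values of a single gene among those the rule picks are not reported here. Genes most like a member with a group mean of at least 1 TPM were the 3 with the highest Pearson correlation of the 14 group means among genes whose highest group mean was at least 5 TPM. Members, pseudogenes, short RNA classes, genes of unconfirmed type, genes named after clones and names on more than 1 row were left out before ranking.

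The alternatives tried were median-ratio scaling, no filter, a pseudocount of 0.1, the line as a block and leaving out each line. Leaving out the 4 WT libraries of the CT labels on day 4 was added after seeing the data. Line numbers recur within a genotype and do not pair KO with WT. The deviations of same-numbered libraries from their group means had correlations of -0.0937 to 0.0783 in WT (0 of 21 pairs over 0.1) and -0.0572 to 0.204 in KO (8 of 21), over genes with a mean of at least 10 TPM.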

Additional observations from a re-analysis of the deposited data

Results flagged for a closer look

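For DLK1, MEG3, DIO3 and DIO3OS the KO libraries lay wholly above WT in at least 1 condition and wholly below it in another. Such a change of direction is shown by 54.2% of all tested genes, and the differences between conditions were not tested. Values are the KO minus WT log2 difference of the second condition minus that of the first. For DLK1 they were -1.65 between CT0.4 and CT1.0 on day 4, -2.14 between CT0.4 on day 4 and CT1.0 on day 8, 1.27 between CT1.0 on day 4 and IWP2 on day 8, and -1.76 between IWP2 and CT1.0 on day 8. For MEG3 they were -0.728 between ES and CT1.0 on day 8, -1.39 between CT0.4 on day 4 and CT1.0 on day 8, and -1.54 between CT1.0 on day 4 and CT1.0 on day 8. For DIO3 they were 0.761 between CT1.0 on day 4 and IWP2 on day 8, 0.958 between CT1.0 on day 4 and CT0.4 on day 8, -2.43 between IWP2 and CT1.0 on day 8, and -2.63 between CT0.4 and CT1.0 on day 8. For DIO3OS they were -2.72 between IWP2 and CT1.0 on day 8 and -2.70 between CT0.4 and CT1.0 on day 8.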

How the results depend on the processing

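Of 276 alternative values of the 50 member differences, 236 moved by less than the spread between lines, 40 moved by more and 0 turned round while larger than that spread. Among the 236 are the 40 values with the line as a block, which by construction could not move. With a pseudocount of 0.1 the KO minus WT difference was 0.86 in ES, -0.528 in CT0.4 on day 8 and -0.917 in CT1.0 on day 8 for MEG3, 1.32 in CT0.4 on day 8 for DIO3 and -0.636 in ES for DIO3OS. In WT on day 8, CT0.4 minus IWP2 became -7.01 for MEG3, -6.38 for DIO3 and -3.52 for DIO3OS, CT1.0 minus IWP2 became -4.29 for MEG3, and CT1.0 minus CT0.4 became 2.72 for MEG3, 6.11 for DIO3 and 3.70 for DIO3OS. The MEG8 difference between lines became -0.275 in KO and 0.441 in WT. By construction a smaller pseudocount widens differences of low values.

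With a line left out, the KO minus WT difference ranged from -0.544 to 0.908 in ES and from -0.998 to 0.142 in CT0.4 on day 8 for DLK1, from -0.157 to 0.473 in IWP2 on day 8 and from -0.926 to -0.191 in CT1.0 on day 8 for MEG3, from -0.391 to 0.173 in IWP2 on day 4 and from -2.69 to -1.58 in CT1.0 on day 8 for DIO3, and from -0.363 to 0.462 in CT0.4 on day 4 and from -2.78 to -1.22 in CT1.0 on day 8 for DIO3OS. For MEG3 in WT on day 8 it ranged from -5.29 to -4.51 for CT0.4 minus IWP2, from -4.38 to -3.03 for CT1.0 minus IWP2 and from 0.914 to 1.48 for CT1.0 minus CT0.4.

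KO against WT, the genes called with no filter were 244 in ES (61 in the reported fit), 32 in IWP2 on day 4 (12), 716 in CT0.4 on day 4 (1183), 55 in IWP2 on day 8 (17) and 206 in CT0.4 on day 8 (116). With median-ratio scaling they were 94 in ES and 11 in IWP2 on day 8, and without the 4 WT day 4 CT libraries 11 in IWP2 on day 8. With a line left out they ranged from 63 to 149 in ES, 47 to 143 in IWP2, 109 to 755 in CT0.4 and 1023 to 3330 in CT1.0 on day 4, and 47 to 118 in IWP2, 71 to 215 in CT0.4 and 371 to 4318 in CT1.0 on day 8. In WT on day 8 they ranged from 983 to 1389 for CT0.4 against IWP2, 731 to 826 for CT1.0 against IWP2 and 1255 to 1590 for CT1.0 against CT0.4. The cause of these changes was not tested, beyond fewer samples or more genes tested.

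With the line as a replicate block the member differences were the same by construction (-1.69 for DLK1 in CT1.0 on day 8), as each group holds both lines of its genotype. The counts of genes called stayed within 1.5 times, from 8 in IWP2 on day 4 to 4244 in CT1.0 on day 4. The numbers do not pair KO with WT. Depth is unknown, and 2 libraries a group limit every value.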
